A study of Mus musculus with 9 samples.

Results

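The genes described here are 33 mouse genes known to be induced by type I interferon, taken by name from the array annotation and represented by the probe set with the highest mean signal over the 9 arrays. A probe set carrying a single gene symbol was found for 31 of the 33, among 18193 genes measured in that way. Isg15 had only a probe set shared with other genes and Ifi44 no listed probe set, so neither was analysed here. Of the 31, 30 passed the filter on low signals and were tested together with the other genes of the array, 13278 in all; Oasl2 was measured but not tested.

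Type I interferons are cytokines that cells release on sensing viral nucleic acid. They bind the receptor formed by Ifnar1 and Ifnar2, the kinases Jak1 and Tyk2 then phosphorylate STAT proteins, and a complex that contains Stat2 and Irf9 binds a DNA element, the interferon stimulated response element, in the promoters of target genes. The targets include sensors of viral RNA, enzymes that block viral replication, and ubiquitin and ADP-ribose enzymes, and in CD8 T cells the same cytokines act as an additional signal during priming.

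The cells were cytotoxic T lymphocytes (CTL) grown from spleens of P14 TCR transgenic mice, otherwise labelled wild type, in which the transgenic receptor directs CD8 T cells against the viral peptide gp33-41. In all 3 groups the splenocytes were activated with that peptide, interleukin 2 and interleukin 12 for 48 h and then expanded with the same cytokines for 96 h. For the last 48 h the cultures held 1 uM KU-0063794 (an inhibitor of the mTOR kinase), 20 nM rapamycin (which inhibits mainly mTOR complex 1 through the protein FKBP12) or the solvent DMSO, with 3 arrays per group. Total RNA was taken on day 6, and arrays sharing a replicate number came from cells of 1 spleen, so the spleens are called 1, 2 and 3.

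Values are log2 signals as deposited, and a difference of 1 is a 2-fold change. Signals of different probe sets do not rank the abundance of different genes. The background level, 1.41 log2, is the 95th percentile of the signals of 29 genes restricted to other tissues. Array medians lay between 0.47 and 0.53 log2, and 29.5% to 30.0% of probe sets were above background on each array. All 12 measured CD8 T cell markers were above background, against 2 of 10 B cell, 1 of 14 myeloid, 2 of 4 NK cell and 3 of 6 CD4 T cell markers. Among 6 plasmacytoid dendritic cell markers the only one above background was Bst2, itself an interferon stimulated gene. The summed log2 signal of the CD8 markers was 87.2 to 87.7 on KU-0063794 arrays, 87.4 to 88.3 on rapamycin arrays and 86.6 to 87.7 on DMSO arrays. That of the myeloid markers was 5.87 to 7.83, 5.79 to 6.57 and 6.10 to 6.95 in the same groups, and that of the B cell markers 12.03 to 14.99, 10.1 to 14.3 and 11.9 to 14.99. The ranges of the 3 groups overlapped for each of these marker lists. No CD8 marker passed the test in any comparison without the spleen as a block. With the block Cd2 rose and Cd247 and Gzmb fell with KU-0063794, and Cd2, Cd5 and Cd8b1 rose and Gzmb fell with rapamycin. The NK cell marker Gzma fell with KU-0063794 with the block, and the CD4 marker Ctla4 rose with KU-0063794 with and without it. The myeloid marker Cd68, below background on all 9 arrays, fell with rapamycin with and without the block. These markers were named after their values were seen, and the part of the marker lists in the results below was not tested. In RNA from a whole culture, fewer expressing cells and less RNA per cell cannot be told apart.

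One array stood apart for these genes: the rapamycin array of spleen 1 had the highest signal of all 9 arrays for 17 of the 31 members (54.8%), whereas it was the highest for 8.48% of all measured genes. It carried 23 members above background, against 17 on each of the other rapamycin arrays, 18, 15 and 16 on the KU-0063794 arrays and 20, 19 and 20 on the DMSO arrays. The DMSO array of spleen 3 was the highest for 7 members (22.6%), against 10.1% of all measured genes. No KU-0063794 array was the highest for any member. Of all measured genes, 8.48%, 11.6% and 13.2% were highest on the KU-0063794 arrays of spleens 1, 2 and 3. Medians that involve rapamycin, and counts of members lower in every spleen, are therefore also given from spleens 2 and 3 or by spleen.

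**Figure D1:**
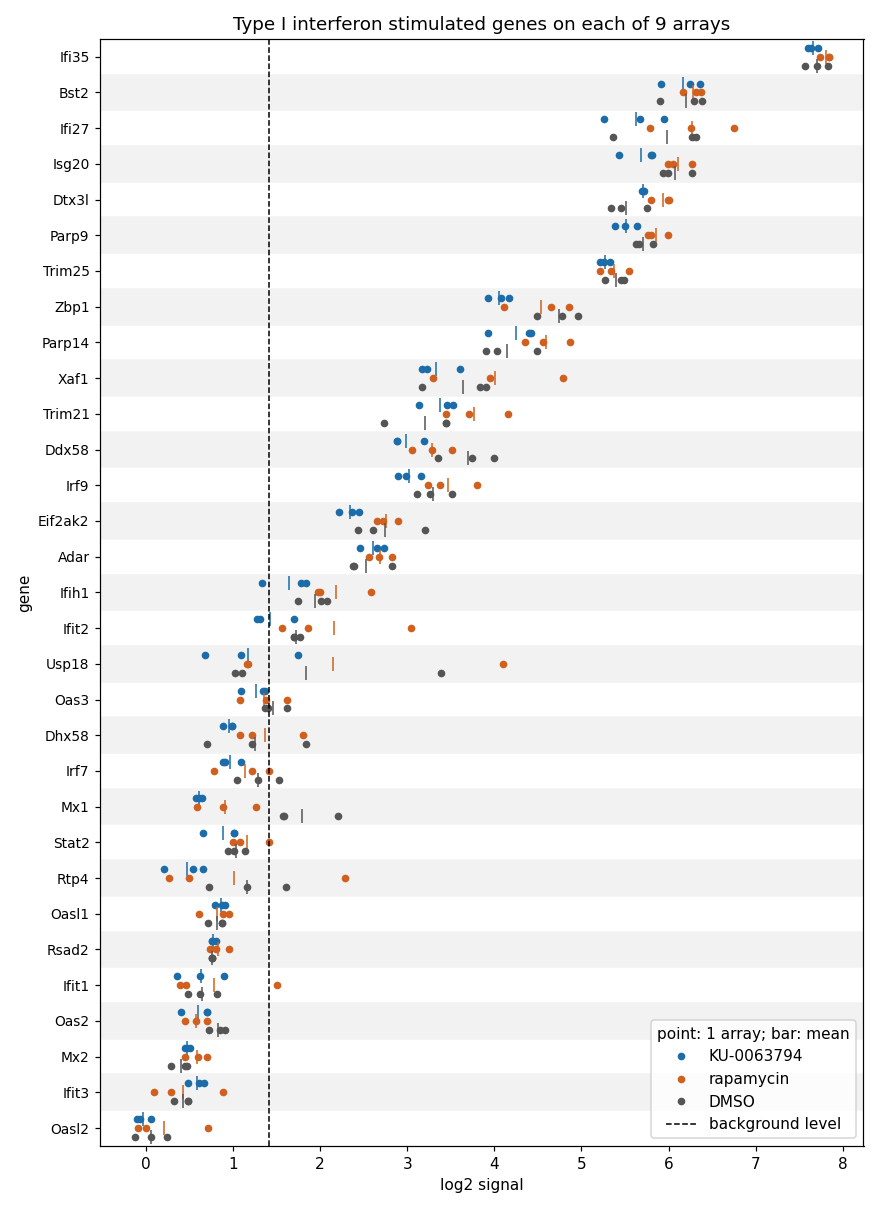
Log2 signal (horizontal axis) of the 31 measured interferon stimulated genes, ordered by mean signal, with 1 point per array and a bar at each group's mean for KU-0063794, rapamycin and DMSO. The dashed line is the background level of 1.41 log2; 18 genes have a mean above it, and the rapamycin array of spleen 1 gives the rightmost point for Usp18, Rtp4 and Ifit2.

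Promoter windows of RefSeq genes (build GRCm38.p6) were available for 23 of the 33 genes; Dhx58, Ifi27, Mx1, Mx2, Oas2, Parp14, Parp9, Rtp4, Usp18 and Zbp1 had none. The core of the interferon stimulated response element was searched as a GAAA block, any 2 bases and another GAAA block on either strand (TTTC blocks on the other strand), and overlapping matches were counted. It was present in 11 of the 23 members (47.8%) and in 1079 of 27025 genes with windows of the same length (3.99%). The same core followed by a C was in 8 of the 23 (34.8%), against 0.944% of all genes, and every match to this longer form is also a match to the core. A match describes the letters in the window and is neither a bound site nor a cause of any value below. The windows of 6 members are shown because they hold the longer form and stand for both kinds of member: Ddx58, Ifih1, Eif2ak2 and Bst2 were measured above background in these cells, whereas Ifit1 and Ifit3 were not. Capitals mark the matches to the core on either strand, and in Bst2 a pair of matches overlaps.
Ddx58 (chr4:40239776-40240075, minus strand): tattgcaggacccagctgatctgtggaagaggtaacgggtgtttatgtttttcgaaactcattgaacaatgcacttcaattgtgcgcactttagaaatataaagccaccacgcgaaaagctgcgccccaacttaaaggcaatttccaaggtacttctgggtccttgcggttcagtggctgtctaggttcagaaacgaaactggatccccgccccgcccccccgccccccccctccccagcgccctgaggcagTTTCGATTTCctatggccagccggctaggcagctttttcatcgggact
Ifih1 (chr2:62646206-62646505, minus strand): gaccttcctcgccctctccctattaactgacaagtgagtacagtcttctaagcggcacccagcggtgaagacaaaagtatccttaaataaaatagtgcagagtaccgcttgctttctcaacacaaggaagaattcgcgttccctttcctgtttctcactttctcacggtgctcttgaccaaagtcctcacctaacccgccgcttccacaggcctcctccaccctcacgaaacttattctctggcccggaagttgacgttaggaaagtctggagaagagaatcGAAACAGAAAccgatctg
Eif2ak2 (chr17:78882523-78882822, minus strand): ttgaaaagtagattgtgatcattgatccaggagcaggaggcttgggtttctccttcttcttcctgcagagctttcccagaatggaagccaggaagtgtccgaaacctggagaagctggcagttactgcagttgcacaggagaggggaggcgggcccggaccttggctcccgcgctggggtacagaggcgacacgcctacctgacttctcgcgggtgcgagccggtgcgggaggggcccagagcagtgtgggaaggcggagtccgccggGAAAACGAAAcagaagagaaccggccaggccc
Bst2 (chr8:71537423-71537722, minus strand): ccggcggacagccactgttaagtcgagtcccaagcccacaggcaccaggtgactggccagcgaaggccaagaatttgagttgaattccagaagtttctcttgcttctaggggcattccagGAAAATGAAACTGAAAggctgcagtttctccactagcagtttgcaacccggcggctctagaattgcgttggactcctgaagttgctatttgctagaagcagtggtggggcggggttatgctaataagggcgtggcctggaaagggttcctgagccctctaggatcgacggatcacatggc
Ifit1 (chr19:34640639-34640938, plus strand): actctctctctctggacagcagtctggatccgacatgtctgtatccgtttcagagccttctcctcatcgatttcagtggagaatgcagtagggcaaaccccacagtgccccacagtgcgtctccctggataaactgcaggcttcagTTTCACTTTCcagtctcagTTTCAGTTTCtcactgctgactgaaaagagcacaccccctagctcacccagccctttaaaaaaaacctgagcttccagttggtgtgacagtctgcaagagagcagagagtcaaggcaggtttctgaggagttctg
Ifit3 (chr19:34583279-34583578, plus strand): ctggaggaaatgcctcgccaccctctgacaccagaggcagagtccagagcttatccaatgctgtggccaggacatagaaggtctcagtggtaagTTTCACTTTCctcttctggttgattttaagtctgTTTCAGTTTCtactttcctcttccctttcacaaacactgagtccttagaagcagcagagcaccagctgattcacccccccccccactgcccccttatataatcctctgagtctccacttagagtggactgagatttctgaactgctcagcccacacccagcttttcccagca

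The module was expressed in part. The 18 members with a mean above background were the transcription factor Irf9, the sensors Ddx58 (RIG-I), Ifih1 (MDA5) and Zbp1, the effectors Ifit2, Isg20, Eif2ak2 (PKR), Adar and Bst2, the ubiquitin and ADP-ribose genes Usp18, Trim21, Trim25, Parp9, Parp14 and Dtx3l, and Xaf1, Ifi35 and Ifi27. The 13 at or below it were Irf7, Stat2, Dhx58 (LGP2), Mx1, Mx2, Ifit1, Ifit3, Oas2, Oas3, Oasl1, Oasl2, Rsad2 (viperin) and Rtp4, which include 9 of the 14 antiviral effectors. Of these 13, Mx1 was above background on all 3 DMSO arrays, Oas3, Irf7, Dhx58 and Rtp4 on 2 arrays each, and Ifit1 on 1. Rsad2 had 0.76, 0.80 and 0.76 log2 with KU-0063794, 0.95, 0.74 and 0.80 with rapamycin, and 0.76 on every DMSO array. All 9 values lay below background, and its spread over the DMSO arrays was the smallest of the 31 members.

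The probe sets of Ifi35, Bst2 and Ifi27 had the highest mean signals of the list. Ifi35, a leucine zipper protein that binds Nmi, had 7.60, 7.72 and 7.64 log2 with KU-0063794, 7.84, 7.74 and 7.84 with rapamycin, and 7.57, 7.71 and 7.83 with DMSO. Its KU-0063794 and rapamycin arrays did not overlap, and the DMSO arrays spanned nearly the range of both. Bst2 (tetherin), a membrane protein that holds budding virions at the cell surface, had 5.91, 6.36 and 6.24 log2 with KU-0063794, 6.16, 6.32 and 6.37 with rapamycin, and 5.90, 6.39 and 6.30 with DMSO. The 3 groups of Bst2 overlapped, and its spleens differed more than its treatments. Ifi27, a small mitochondrial membrane protein, had 5.95, 5.26 and 5.67 log2 with KU-0063794, 6.75, 5.79 and 6.26 with rapamycin, and 6.31, 5.36 and 6.27 with DMSO. Within every treatment Ifi27 was highest in spleen 1 and lowest in spleen 2, and within every spleen it was lower with KU-0063794 than with rapamycin or DMSO.

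Usp18, the protease that removes Isg15 from proteins and restrains signalling at the interferon receptor, differed mostly by spleen. Its signals were 1.74, 1.09 and 0.68 log2 with KU-0063794, 4.10, 1.15 and 1.17 with rapamycin, and 3.39, 1.10 and 1.02 with DMSO. It was above background only on the arrays of spleen 1, in all 3 groups, and its standard deviation over the DMSO arrays, 1.34 log2, was the largest of the list. Rtp4, a receptor chaperone, was above background on 2 arrays, at 2.29 log2 on the rapamycin array of spleen 1 and 1.61 on the DMSO array of spleen 3. Ifit1, which binds viral RNA, was above background on 1 array, at 1.51 log2 with rapamycin in spleen 1.

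The first comparison asks how KU-0063794 changed these genes relative to DMSO. Mx1, a dynamin-like GTPase that blocks viral nucleocapsids, was the one member that fell, and no member rose. Ddx58, Zbp1 and Isg20 did not pass in this fit but passed, as lower, when the spleen was included as a block. Without the block, Ddx58 also passed with quantile normalization, with array weights, among genes above background alone and without DMSO replicate 2. Zbp1 also passed without rapamycin replicate 2. The median difference over the 31 members was -0.20 log2, against 0.01 over all measured genes, and 23 member means were lower, against 45.3% of all genes. By spleen this median was -0.13, -0.09 and -0.32 log2 in spleens 1, 2 and 3, so it was largest in spleen 3.

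Mx1 had 0.64, 0.57 and 0.60 log2 with KU-0063794, 1.26, 0.88 and 0.58 with rapamycin, and 1.58, 1.58 and 2.21 with DMSO. No array of either inhibitor was above background and all 3 DMSO arrays were, so the groups did not overlap in either comparison. With the inhibitor arrays set to the background level, Mx1 was at least 1.3-fold lower in either inhibitor group than with DMSO. The fitted difference of KU-0063794 minus DMSO was -1.18 ± 0.20 log2 (SE) with an adjusted p of 0.0169 in limma, and all 3 spleens showed the direction. Over 28 other settings the adjusted p lay between 0.00586 and 0.145, and the call was lost without any 1 of the KU-0063794 arrays (0.0587, 0.0649 and 0.0605 without replicates 1, 2 and 3).

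Thus 1 of 30 tested members fell and 0 rose, where 1.78% of all tested genes fell and 2.28% rose. With the spleen as a block, 4 of 30 members fell and 0 rose, against 5.86% and 6.52% of all tested genes. The 3 added members were 2 sensors and an exonuclease. In Ddx58, which detects viral RNA with a free 5′ triphosphate, the signals were 3.19, 2.88 and 2.88 log2 with KU-0063794, 3.51, 3.29 and 3.05 with rapamycin, and 3.75, 3.35 and 4.0 with DMSO. The KU-0063794 and DMSO arrays did not overlap, with all 3 DMSO values higher. The difference of KU-0063794 minus DMSO was -0.72 ± 0.18 log2 (SE), with an adjusted p of 0.0582 in limma and 0.0242 with the block, and over 29 settings from 0.022 to 0.979. The highest of these came from the second probe set of Ddx58, which was below background and gave a difference of 0.02 log2.

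Zbp1, a sensor of Z-form nucleic acid that can trigger necroptosis, had 4.16, 4.08 and 3.93 log2 with KU-0063794, 4.86, 4.11 and 4.65 with rapamycin, and 4.77, 4.49 and 4.96 with DMSO. All 3 KU-0063794 values lay below all 3 DMSO values. The difference was -0.69 ± 0.19 log2 (SE), with an adjusted p of 0.0825 in limma, 0.0232 with the block and 0.0232 to 0.46 over 29 settings, and the second probe set of Zbp1 gave -0.64. Isg20, an exonuclease that degrades single-stranded RNA, had 5.43, 5.81 and 5.80 log2 with KU-0063794, 6.00, 6.06 and 6.27 with rapamycin, and 5.94, 6.00 and 6.27 with DMSO. Its rapamycin and DMSO values nearly coincided spleen by spleen, and every KU-0063794 value lay below them. The difference of KU-0063794 minus DMSO was -0.39 ± 0.135 log2 (SE), with an adjusted p of 0.156 in limma, 0.024 with the block and 0.024 to 0.423 over 29 settings.

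Among the other members the differences of KU-0063794 minus DMSO ran from -0.70 log2 for Rtp4 to 0.20 for Dtx3l, and none passed the test with or without the block. In all 3 spleens 14 of the 31 members were lower (15.4% of all measured genes were), and 1 was higher (18.6% of all genes). Of the 18 members above background 9 were lower and 1 higher in all 3 spleens, against 26% and 30% of genes above background. The groups did not overlap for 6 members, all lower with KU-0063794. Of all measured genes, 7.11% were lower and 8.77% higher without overlap. Of the 6 members 3 were above background, where 1071 of 7977 genes were lower and 1286 higher without overlap.

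**Figure D2:**
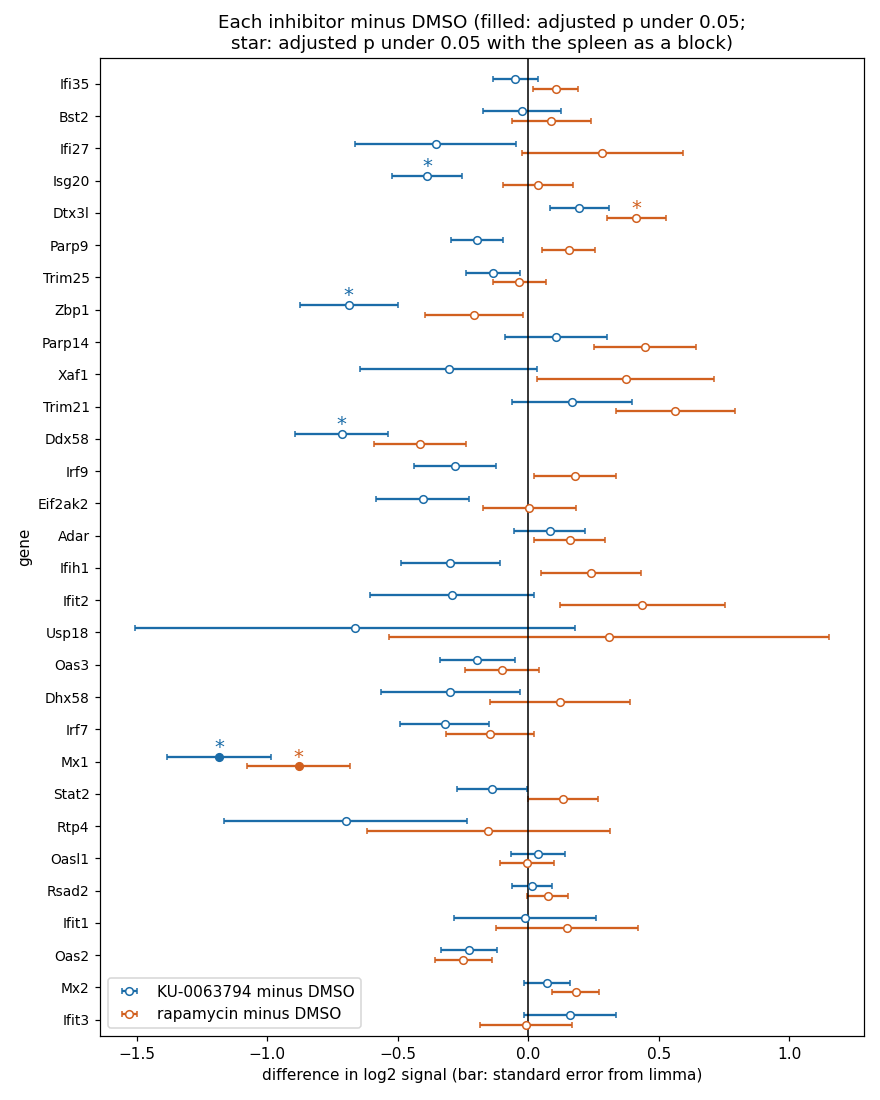
Difference in log2 signal against DMSO (horizontal axis) for KU-0063794 and for rapamycin in the 30 tested members, with the standard error from limma as the bar; both differences use the same 3 DMSO arrays. Filled points mark Mx1, which passed the test in both comparisons, and stars mark the differences that passed with the spleen as a block.

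The second comparison asks the same of rapamycin. Again Mx1 was the one member that fell, and no member rose without the block; with the block Dtx3l, the ubiquitin ligase partner of Parp9, rose as well. Of 30 tested members 1 fell and 0 rose, where 1.79% of all tested genes fell and 2.65% rose. With the block 1 fell and 1 rose, against 5.52% and 6.24% of all tested genes. Member means were lower for 10 of 31, against 50.3% of all measured genes. The median difference over the 31 members was 0.12 log2, against about 0 over all measured genes; it was -0.015 without the rapamycin array of spleen 1 and 0.01 without spleen 1 in all groups.

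The Mx1 difference of rapamycin minus DMSO was -0.88 ± 0.20 log2 (SE) with an adjusted p of 0.0392 in limma, and all 3 spleens showed the direction. Over 28 other settings the adjusted p lay between 0.0196 and 0.229. The call was lost without any 1 of 7 arrays: KU-0063794 replicates 1, 2 and 3 (0.0697, 0.0656 and 0.0679), rapamycin replicates 2 and 3 (0.109 and 0.131) and DMSO replicates 1 and 3 (0.0743 and 0.0871). Dtx3l had 5.72, 5.70 and 5.71 log2 with KU-0063794, 6.00, 5.80 and 5.99 with rapamycin, and 5.46, 5.34 and 5.76 with DMSO. All 3 rapamycin values were above all 3 DMSO values, though the nearest arrays, at 5.80 and 5.76, were close. The difference of rapamycin minus DMSO was 0.41 ± 0.11 log2 (SE), with an adjusted p of 0.0776 in limma, 0.0261 with the block and 0.0261 to 0.477 over 29 settings, and the second probe set of Dtx3l gave 0.44.

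Differences of rapamycin minus DMSO among the remaining members ran from -0.41 log2 for Ddx58 to 0.56 for Trim21, the cytosolic antibody receptor with ubiquitin ligase activity, whose adjusted p was 0.235 in limma. The second probe set of Trim21, also above background, gave 0.10. In all 3 spleens 7 of the 31 members were higher, against 16.2% of all measured genes, and 3 were lower, against 17.8%. Of the 18 members above background 6 were higher and 1 lower in all 3 spleens, against 27.8% and 26.4% of genes above background. In spleens 2 and 3 alone 9 of the 31 (29.0%) were lower, against 26.3% of all measured genes. The groups did not overlap for 2 members that were lower and 1 that was higher, against 7.70% and 7.33% of all measured genes.

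The third comparison sets KU-0063794 directly against rapamycin, agents that differ in which mTOR complexes they inhibit; their doses, 1 uM and 20 nM, also differ. No member passed the test, with or without the block, and neither did any of the 13278 genes tested (0.00% in each direction). At an unadjusted p under 0.05, limma gave 7 of 30 members and 629 of all genes, and 12 members and 1329 genes with the block. Nearly all differences had 1 sign: the mean was lower with KU-0063794 for 28 of the 31 members, against 45.6% of all measured genes, and for each of the 18 above background. Without spleen 1 each of these 18 stayed lower. Ifit1, Irf7, Oasl2 and Rsad2, all at or below background, were then 0.003 to 0.065 log2 higher with KU-0063794. Ifit3 and Oasl1 stayed higher, and Oas2 became lower.

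The spleens can be read separately because each gave both cultures. In all 3 spleens 16 of the 31 members were lower with KU-0063794 than with rapamycin, against 11.1% of all measured genes, and none was higher, against 14.3%. Of the 18 members above background 15 were lower in all 3 spleens, against 18.1% of the 7977 genes above background; the exceptions were Adar, which was 0.16 log2 higher in spleen 3, and Bst2 and Trim21, which were 0.04 and 0.08 higher in spleen 2. Among the 15, Usp18 was below background on every array of spleens 2 and 3, at 0.68 to 1.17 log2. Of the 13 at or below background 1 was lower in all 3 spleens. In spleens 2 and 3 alone 16 of the 31 members (51.6%) were lower, against 19.3% of all measured genes. The median difference over the 31 members was -0.47 log2 in spleen 1, -0.10 in spleen 2 and -0.16 in spleen 3. It was -0.30 over all spleens and -0.19 without spleen 1, against 0.01 for all measured genes.

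**Figure D3:**
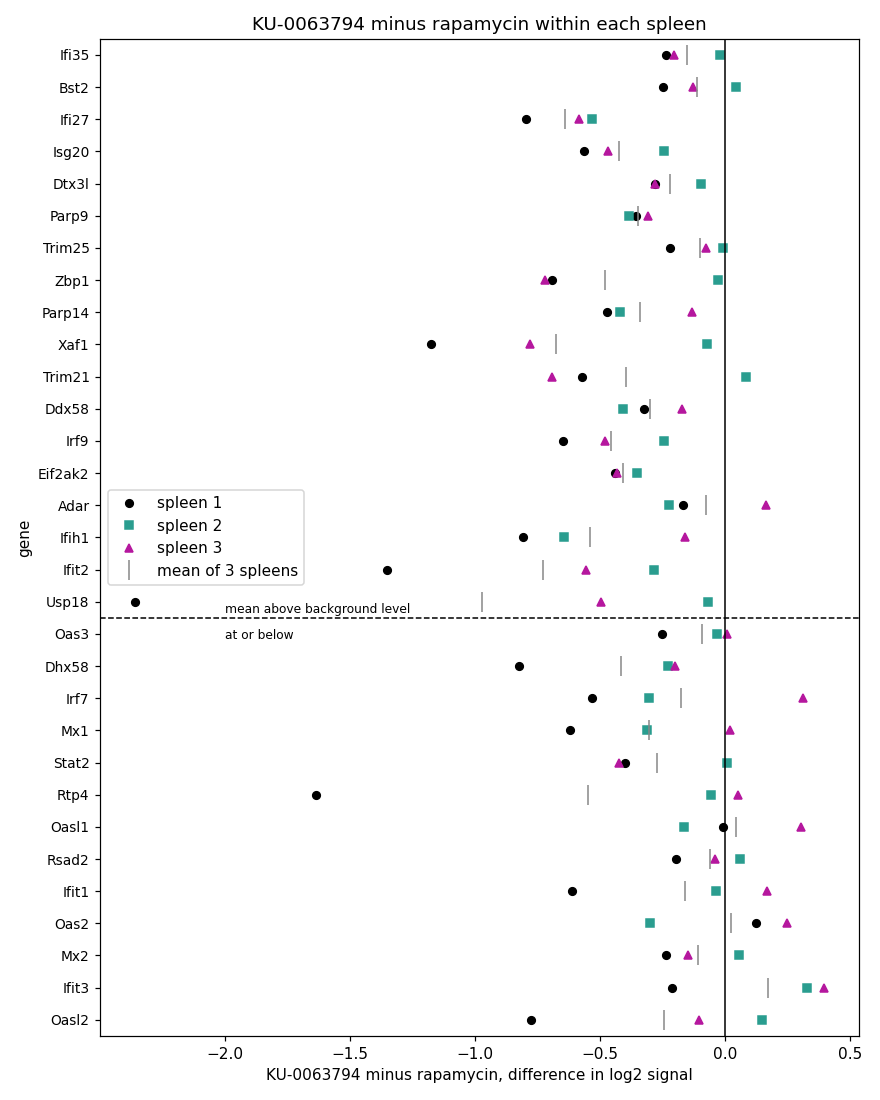
KU-0063794 minus rapamycin (difference in log2 signal, horizontal axis) within each of the 3 spleens for the 31 measured members, with a bar at the mean of the spleens. Of the 18 genes above the dashed divider, whose mean signal exceeds background, 15 lie left of 0 in every spleen, and spleen 1 gives the largest differences for Usp18, Ifit2 and Xaf1.

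By role, all 4 sensors (Ddx58, Ifih1, Dhx58 and Zbp1) and 5 of 6 ubiquitin and ADP-ribose genes were lower with KU-0063794 in all 3 spleens. That held for 11.1% of all measured genes and 18.1% of genes above background. Dhx58 had a mean below background, and the second probe set of Ddx58, also below it, gave a mean difference of 0.04 log2. Among the 5, Trim25 differed by -0.01 log2 in spleen 2, and its second probe set, above background, gave a mean of 0.06. Also lower in all 3 spleens were 1 of 3 transcription factors (Irf9), 3 of 14 antiviral effectors (Ifit2, Isg20 and Eif2ak2) and 3 of 4 remaining members (Xaf1, Ifi35 and Ifi27). In spleens 2 and 3 alone the counts of lower members were the same for each role, against 19.3% of all measured genes and 24.5% of genes above background. Most of the other antiviral effectors were at or below background. The groups did not overlap for 8 members, all lower with KU-0063794: Dhx58, Dtx3l, Eif2ak2, Ifi35, Ifih1, Irf9, Isg20 and Parp9. Of all measured genes, 2.70% were lower and 4.34% higher without overlap. Of the 8 members 7 were above background, where 358 of 7977 genes were lower and 445 higher without overlap.

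Usp18, Ifit2 and Xaf1 had the largest mean differences of KU-0063794 minus rapamycin among members above background, and all 3 rested most on spleen 1. Usp18, whose signals are given above, differed by -2.36, -0.07 and -0.49 log2 in spleens 1, 2 and 3. Ifit2, which restrains viral translation, had 1.70, 1.28 and 1.31 log2 with KU-0063794, 3.05, 1.56 and 1.87 with rapamycin, and 1.70, 1.70 and 1.77 with DMSO. Its difference of -0.73 log2 over 3 spleens was -0.42 without spleen 1, and the KU-0063794 and rapamycin arrays overlapped. Xaf1, which antagonises the apoptosis inhibitor XIAP, had 3.61, 3.22 and 3.17 log2 with KU-0063794, 4.78, 3.29 and 3.95 with rapamycin, and 3.91, 3.17 and 3.83 with DMSO. Its difference of -0.68 log2 was -0.43 without spleen 1, and in spleen 2 the 3 treatments of Xaf1 lay close together.

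Parp9, an ADP-ribosyltransferase-like protein, differed by -0.36, -0.39 and -0.31 log2 in spleens 1, 2 and 3, a mean of -0.35. Its 95% interval in limma was -0.58 to -0.12 without the block (adjusted p 0.933) and -0.54 to -0.16 with it (adjusted p 0.333). Eif2ak2, the kinase that halts translation on double-stranded RNA, differed by -0.44, -0.35 and -0.43 log2, a mean of -0.41. Its 95% interval in limma was -0.81 to -0.01 without the block (adjusted p 0.933) and -0.84 to 0.025 with it (adjusted p 0.512). These values are from the Eif2ak2 probe set with the highest signal. The other 2, also above background, gave -0.12 and -0.23 log2. Ifi27 differed by -0.80, -0.53 and -0.59 log2, Irf9 by -0.65, -0.24 and -0.48, and Isg20 by -0.57, -0.25 and -0.47. Ifih1, which detects long double-stranded RNA, differed by -0.81, -0.65 and -0.16 log2. With the block these 4 genes had adjusted p values of 0.239, 0.296, 0.296 and 0.333 in limma.

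**Figure D4:**
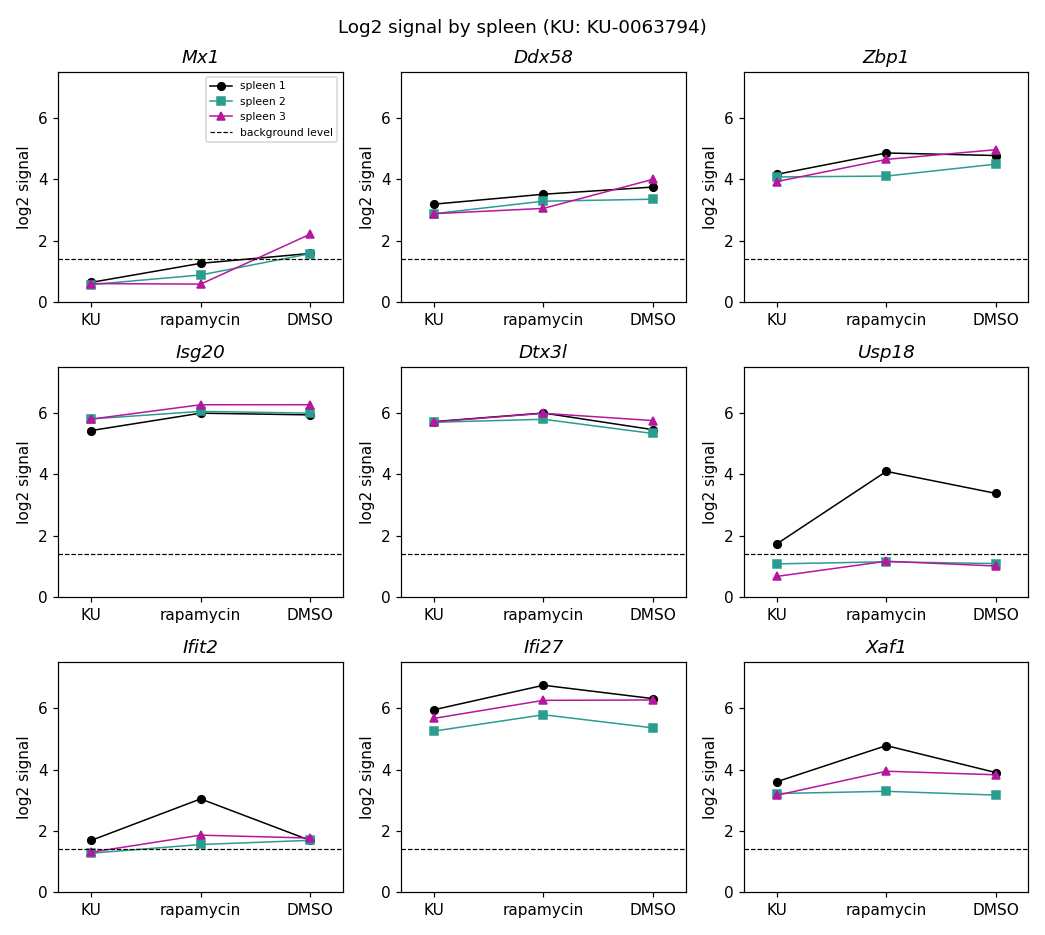
Log2 signal (vertical axis) of 9 members in each treatment, with 1 line per spleen and the background level of 1.41 log2 dashed. Mx1 is above background only with DMSO, Usp18 only in spleen 1, and Ifi27 keeps the order of the spleens in every treatment.

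Of the genes upstream of the module, few passed the test. Of 12 interferon ligand genes listed, 8 were measured and 4 tested. Ifnb1 was at 0.13 to 0.52 log2 on all 9 arrays, below background. Ifng, the type II interferon that CTL secrete, had 7.60, 7.49 and 6.60 log2 with KU-0063794, 7.63, 7.57 and 6.54 with rapamycin, and 10.54, 9.62 and 9.44 with DMSO. Neither inhibitor group overlapped with DMSO, and Ifng fell with KU-0063794 by 2.63 log2 (adjusted p 0.0114 in limma) and with rapamycin by 2.62 log2 (adjusted p 0.0105).

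None of 7 receptor and kinase genes passed the test in any comparison. Ifnar1 averaged 3.19 log2 with KU-0063794, 3.53 with rapamycin and 3.01 with DMSO, and Ifnar2 4.21, 4.53 and 4.53. Jak1 differed from DMSO by -0.42 log2 with KU-0063794 and by -0.31 with rapamycin (adjusted p 0.0739 and 0.17 in limma), and passed in both with the block (adjusted p 0.00878 and 0.0266). Tyk2 differed by -0.21 log2 with each. Of 10 STAT and IRF genes outside the module, Irf2, a repressor of interferon responses, rose by 0.50 log2 with KU-0063794 and by 0.53 with rapamycin (adjusted p 0.0293 and 0.0225 in limma), and none fell. Irf1 differed from DMSO by 0.11 log2 with KU-0063794 and by 0.44 with rapamycin, and Socs1, a feedback inhibitor of JAK kinases, by -0.06 and 0.21. None of these passed without the block, and Irf1 with rapamycin passed with it (adjusted p 0.0299). With the block 2 of the 10 STAT and IRF genes rose and 1 fell with KU-0063794, against 6.52% and 5.86% of all tested genes. With rapamycin 2 rose and 2 fell, against 6.24% and 5.52%. Of all tested genes 2.28% rose with KU-0063794 and 2.65% with rapamycin without the block, and 1.78% and 1.79% fell. None of 10 tested adaptors of nucleic acid sensing and none of 8 feedback inhibitors passed in any comparison without the block. The 8 include Usp18, itself a member of the module. With the block Ptpn6, a phosphatase named after its values were seen, rose by 0.40 log2 with KU-0063794 (adjusted p 0.00866 in limma).

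Other interferon targets were read from a list of 52 further type I interferon stimulated genes, of which 45 were measured and 40 tested, and a list of 18 interferon gamma targets, of which 15 were measured and 13 tested. Irf1 and Socs1 are on the second list and also among the genes above, so Irf1 with rapamycin is counted in both. In the first, 1 gene rose with KU-0063794 (Trim14) and 3 with rapamycin, and none fell with either; with the block 2 rose and 5 fell with KU-0063794, where 6.52% and 5.86% of all tested genes did, and 6 rose and 4 fell with rapamycin, where 6.24% and 5.52% did. Without the block 2.28% of all tested genes rose with KU-0063794 and 2.65% with rapamycin. Trim14, which takes part in antiviral signalling at mitochondria, rose by 0.68 log2 with KU-0063794 and by 0.80 with rapamycin (adjusted p 0.0348 and 0.0187 in limma), and the GTPase Ifi47 rose by 0.84 log2 with rapamycin (adjusted p 0.0216). The third gene that rose with rapamycin, named after its values were seen, was Ly6e. In the second, Gbp2, a guanylate binding protein, was the one gene that rose with each inhibitor, and with the block 1 of the 13 rose with KU-0063794 and 6 with rapamycin, against the same 6.52% and 6.24% of all tested genes. Its signals were 6.96, 6.76 and 6.90 log2 with KU-0063794, 7.5, 7.13 and 7.61 with rapamycin, and 5.76, 5.84 and 6.37 with DMSO. The 3 groups of Gbp2 did not overlap; it rose by 0.88 log2 with KU-0063794 and by 1.42 with rapamycin (adjusted p 0.0261 and 0.00649 in limma), while Ifng fell in the same cultures.

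Both lists had the sign of the module between the inhibitors. With KU-0063794, 24 of the 45 further type I genes (53.3%) and 11 of the 15 interferon gamma targets (73.3%) were lower than with rapamycin in all 3 spleens. That held for 11.1% of all measured genes and 18.1% of genes above background, which 32 of the 45 and 12 of the 15 were. No gene of either list passed the test. In spleens 2 and 3 alone 27 of the 45 and 11 of the 15 were lower, against 19.3% of all measured genes and 24.5% of genes above background. The median difference over the type I list was -0.16 log2 (-0.24, -0.10 and -0.17 in spleens 1, 2 and 3), and over the interferon gamma targets -0.26 (-0.23, -0.22 and -0.33). The rapamycin array of spleen 1 was the highest of the 9 for 19 of the 45 further type I genes (42.2%) and for 4 of the 15 interferon gamma targets (26.7%). For the interferon gamma targets the rapamycin array of spleen 3 was more often the highest, for 7 of the 15 (46.7%). Of all measured genes, 8.48% were highest on the rapamycin array of spleen 1 and 13.6% on that of spleen 3.

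**Figure D5:**
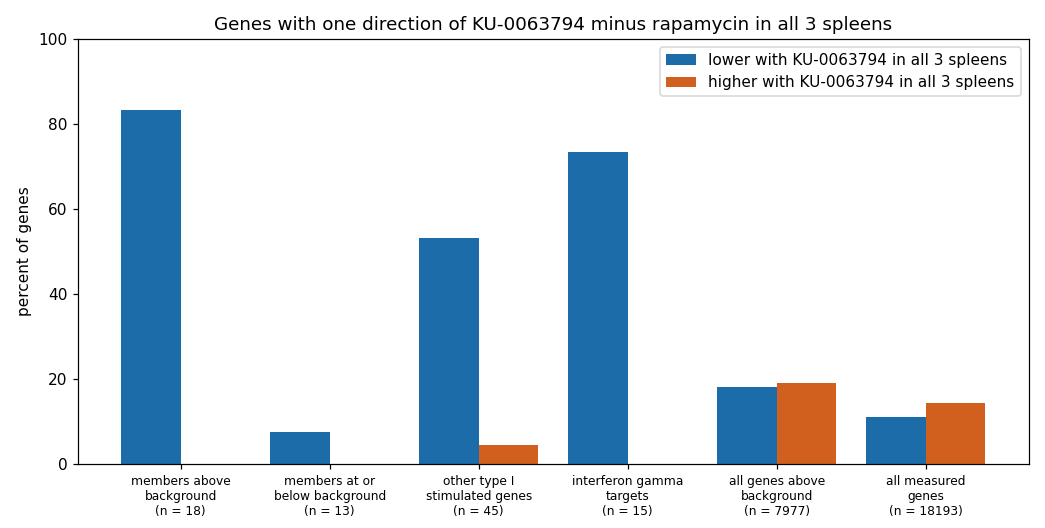
Percent of genes (vertical axis, from 0) that were lower or higher with KU-0063794 than with rapamycin in all 3 spleens, for members above and at or below background, other type I interferon stimulated genes, interferon gamma targets, and all measured genes. The share lower is 83.3% for members above background, 53.3% for the other type I genes and 73.3% for interferon gamma targets, against 18.1% of all genes above background and 11.1% of all measured genes.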

How the data were processed

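Mouse CTL cultures (9, in 3 groups of 3) were measured on 1 Affymetrix array each. The authors deposited log2 signals per probe set, made with Affymetrix Expression Console 1.3.1 per the submitters' processing notes; how background was corrected and arrays were normalized is not given in the sources used here. These values were used as deposited. Of 45101 probe sets, 64 were controls, 932 had several gene symbols, 9160 were not listed and 34945 had 1 symbol. Each gene took its probe set with the highest mean, and genes with a mean above 0.31 log2, the 40th percentile, were tested.

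Differences were tested in R 4.3.3 with limma 3.58.1 (lmFit and eBayes, two-sided, group as the only term, all 9 arrays), with Benjamini-Hochberg adjustment over the 13278 genes of each contrast and a threshold of 0.05. The procedure was tested on simulated data with independent noise and no spleen effect, which does not cover arrays that share a spleen. Arrays of 1 replicate number share a spleen by the study's design; deviations from group means correlated at 0.345 to 0.533 in the 9 pairs of arrays with the same number and at -0.414 to -0.0791 in the 18 others. Because the spleens are shared by design, the fit that adds the spleen as a block is given where it changed a call. The number of arrays limits the precision.

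The members and gene lists were chosen with earlier results of these data known. All members are named; every array's value is given for members past the threshold in any contrast with or without the block, the 3 with the highest means, the 3 above background with the largest difference between the inhibitors, and those with the largest and smallest spread over DMSO arrays. From other lists, up to 2 genes per direction past the threshold and a panel of pathway genes are named. Medians and counts over spleens were added after seeing the data.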

Additional observations from a re-analysis of the deposited data

How the results depend on the processing

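With KU-0063794 against DMSO, 1 member was called, and 540 of all genes. A replicate block for the spleen, fixed or random, gave 4 members each, and 1644 and 1291 genes. Quantile normalization, the mean of all probe sets and array weights each gave 2 members. Fits of only the 2 groups gave 111 genes and the second probe set 249. Without 1 array there were 0 to 2 members and 123 to 548 genes; without 1 spleen 0 members and 0 to 3 genes, or 0 to 1 members and 89 to 474 genes with the block. With rapamycin against DMSO, 1 member was called, and 590 genes. The fixed and the random block gave 2 members each, and 1561 and 1245 genes. Fits of only the 2 groups, with or without the block, the genes above background and the second probe set each gave 0 members, and fits of the 2 groups without the block and the second probe set gave 98 and 304 genes. Without 1 array there were 0 to 1 members and 183 to 514 genes; without 1 spleen 0 members and 0 to 1 genes, or 0 to 1 members and 6 to 411 genes with the block. With KU-0063794 against rapamycin no member and no gene was called under any of the 29 alternatives. Beyond the members named in the report, the replicate block changed no call of a member; Eif2ak2 fell with KU-0063794 when all its probe sets were averaged, and Trim21 rose with rapamycin by 0.84 log2 without spleen 2 with the block, while its second probe set gave 0.10 over all spleens. Members lower with KU-0063794 than with rapamycin in every spleen numbered 16, and 10 with the second probe set, 17 with median centring and 18 with quantile normalization. Leaving out 1 spleen gave 16 to 23, but dropping a spleen cannot lower this count, so it is no check of it. Of all measured genes 11.1% were lower in all 3 spleens and 19.3% in spleens 2 and 3. The median member difference of KU-0063794 minus rapamycin stayed between -0.40 and -0.15 log2, and that of KU-0063794 minus DMSO between -0.29 and -0.09. The cause of these changes was not tested. No member value called in the main setting or in the alternative changed sign; among values called in neither, 29 of 814 for KU-0063794 against DMSO, 66 of 823 for rapamycin against DMSO and 28 of 855 for KU-0063794 against rapamycin did, Ddx58 with its second probe set among them. Signals near background, which 13 members have, understate differences.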

Other observations

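Ctla4, a checkpoint receptor placed among the CD4 T cell markers, rose with KU-0063794 by 0.59 log2 over DMSO (adjusted p 0.0487 in limma). Its signals were 6.84, 6.71 and 6.61 log2 with KU-0063794, 6.40, 6.34 and 6.18 with rapamycin, and 6.46, 5.97 and 5.97 with DMSO, listed from high to low in each group. The KU-0063794 values lay above those of both other groups. Cd68, a myeloid marker, was below background on all 9 arrays, at 0.40 to 0.47 log2 with KU-0063794, 0.17 to 0.41 with rapamycin and 0.67 to 0.93 with DMSO.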
